A study of Mus musculus with 2 samples.

Results

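The genes described are 10 that make, use and buffer high-energy phosphate in muscle: the creatine kinases Ckm, Ckb, Ckmt1 and Ckmt2, the creatine synthesis enzymes Gatm and Gamt, adenylate kinase Ak1, the AMP deaminases Ampd1 and Ampd3, and the muscle adenylosuccinate synthase Adssl1. They were picked by gene symbol, and all 10 were found among 55536 annotated genes. Total RNA was sequenced from the gastrocnemius, a calf muscle made mostly of fast fibres, of male B6CASTF1/J mice aged 14 days from The Jackson Laboratory. There was 1 group with 2 biological replicate libraries, each made from 300 ng of RNA with ERCC control RNAs added, and no treatment, genotype contrast or second age. The sample names mention 3 males and 1 donor identifier serves both libraries, so it is not settled whether the libraries came from different animals or from pools, and the differences and p-values below describe the spread between these libraries, which may be technical. Levels are given as TPM, a unit of relative transcript abundance that is corrected for transcript length and so allows genes to be compared within a library.

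Creatine kinases pass a phosphate group between ATP and creatine, so that phosphocreatine refills ATP during a contraction. Muscle carries a cytosolic form built from Ckm, which sits at the M-line of the sarcomere among other places, and a mitochondrial form built from Ckmt2, while Ckb and Ckmt1 are the forms known from brain and many other tissues. Adenylate kinase turns ADP into ATP and AMP. AMP deaminase turns AMP into IMP, and adenylosuccinate synthase with adenylosuccinate lyase (Adsl) turns IMP back into AMP. The deaminase, the synthase and the lyase together form the purine nucleotide cycle.

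The libraries held 40825601 expected counts (replicate 1) and 37329025 (replicate 2), of which the added RNAs took 0.731% and 0.881%. Markers of muscle fibres were abundant. The 8 genes of the fast-fibre list summed to 101288 TPM in replicate 1 and 109210 TPM in replicate 2. Of these sums Acta1 (skeletal actin, not confined to fast fibres) made up 26590 and 28620 TPM. The 8 slow-fibre markers summed to 1270 and 1181 TPM. Neuron markers summed to 1.94 and 1.76 TPM. All these values are bulk levels, in which fewer cells of a type and less RNA per cell cannot be told apart.

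The 10 genes spanned more than 4 orders of magnitude. Among protein-coding genes Ckm ranked 3, Ak1 48, Ckmt2 127, Ampd1 169, Adssl1 250, Gamt 517, Gatm 2938, Ckb 4905, Ampd3 8745 and Ckmt1 12812. This order was the same in the second quantification, a transcript table that the authors made directly from the reads and that was summed per gene. No neighbours in the order overlapped between the libraries, and neither did the quantifier's own intervals. The closest neighbours were Ckmt2 and Ampd1, with a ratio of 1.34 in replicate 1 and 1.20 in replicate 2. At least 1 TPM in both libraries was reached by 9 of the 10 genes, against 21.2% of all annotated genes and 49.2% of protein-coding genes, and Ckmt1 was the exception. The 10 genes together took 3.98 ± 0.195% of the TPM of nuclear protein-coding genes (SD, n = 2), of which Ckm alone took 3.56 ± 0.182%.

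**Figure D1:**
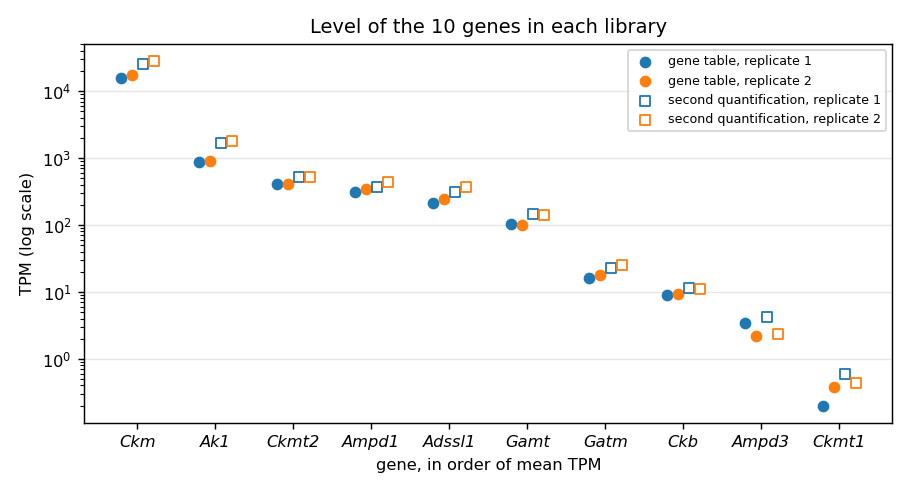
TPM on a log axis for each of the 10 genes, in order of mean TPM, with filled circles for the gene table, open squares for the second quantification, blue for replicate 1 and orange for replicate 2. The genes descend from Ckm at 15935 and 17422 TPM to Ckmt1 at 0.20 and 0.38 TPM, and in the gene table the values of neighbouring genes do not overlap.

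Among the cytosolic creatine kinases the muscle form was far more abundant than the brain form. Ckm (ENSMUSG00000030399.2, chr7:19404776-19422841, plus strand, GRCm38 with the GENCODE M21 annotation) reached 15935 TPM in replicate 1 and 17422 TPM in replicate 2, from 497246 and 510472 expected counts. Ckb (ENSMUSG00000001270.9, chr12:111669361-111672338, minus strand) had 8.92 and 9.17 TPM, from 397 and 381 counts. Replicate 2 was the higher library in TPM for both genes in the gene table. In the second quantification this held for Ckm, while Ckb had 11.6 and 11.1 TPM. The quantifier's interval for Ckm in replicate 1, 15557 to 15657 TPM, lay around its posterior mean of 15607 TPM and did not contain the listed value. The same held in both libraries for 4 of the 10 genes (Ckm, Ckmt1, Ckmt2 and Ak1). The TPM ratio of Ckm over Ckb was 1786 in replicate 1 and 1900 in replicate 2, a mean of 1843 ± 80.3 (SD, n = 2). The spread between the libraries was small beside this ratio, but with only 2 libraries the smallest p an exact sign-flip test allows is 0.5, so no test is given for this or the other ratios. The coding sequences of Ckm and Ckb, each of 381 codons, were identical at 76.1% of alignment columns, and the longest run of bases they shared was 20.

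The windows around the RefSeq start sites of both genes are shown because they are the cytosolic pair and differ strongly in level. Each holds the 250 bases before the annotated start and the 50 bases from it onward (RefSeq, GRCm38.p6), 5′ to 3′ on the gene's strand, with TATANA and CANNTG matches on either strand in capitals.
Ckm, chr7:19410844-19411143, plus strand: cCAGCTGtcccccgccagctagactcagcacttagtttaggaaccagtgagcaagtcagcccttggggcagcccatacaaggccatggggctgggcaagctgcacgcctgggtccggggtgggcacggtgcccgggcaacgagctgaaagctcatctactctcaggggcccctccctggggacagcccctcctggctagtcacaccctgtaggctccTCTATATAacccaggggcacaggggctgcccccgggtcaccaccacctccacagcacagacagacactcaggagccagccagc
Ckb, chr12:111672289-111672588, minus strand: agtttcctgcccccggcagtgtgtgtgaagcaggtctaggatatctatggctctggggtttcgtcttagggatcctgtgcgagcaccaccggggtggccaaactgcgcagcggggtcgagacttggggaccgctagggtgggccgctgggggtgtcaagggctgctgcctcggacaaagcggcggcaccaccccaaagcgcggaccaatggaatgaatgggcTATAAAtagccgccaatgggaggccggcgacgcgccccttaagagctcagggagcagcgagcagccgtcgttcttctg
Counted from the start base as 0, the TATANA matches of Ckm began at -33 and -31 and overlapped each other, and that of Ckb began at -28. The Ckm window also held 1 CAGCTG match, a form of the E-box CANNTG to which myogenic factors bind, at -249, and Ckb held no CANNTG. Ckb held 2 CCAAT matches, at -46 and -16, and a match to the MEF2 site overlapping its TATA motif. Of 32851 RefSeq windows of this length, 24.7% held TATANA, 72.3% CANNTG, 16.3% CAGCTG, 37.4% CCAAT and 3.19% the MEF2 pattern, each searched on both strands. The muscle enhancer known for Ckm lies further upstream than this window. A match describes letters and not a bound site.

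Among the mitochondrial creatine kinases the sarcomeric form was the one present. Ckmt2 (ENSMUSG00000021622.3, chr13:91853387-91876885, minus strand) reached 414 TPM in replicate 1 and 411 TPM in replicate 2, with 18387 and 17080 counts. Ckmt1 (ENSMUSG00000000308.14, chr2:121357714-121363737, plus strand) had 0.20 and 0.38 TPM, resting on 3 and 8 counts, where 3 counts is the floor used here. Ckmt2 was the steadiest of the 10 genes between the libraries in TPM, and Ckmt1 was at or near the limit of detection in both. The ratio of Ckmt2 over Ckmt1 was 2069 in replicate 1 (95% exact Poisson interval of the Ckmt1 count alone, 708 to 10035) and 1081 in replicate 2 (549 to 2505), intervals that cover counting error only. The longest stretch of identical coding sequence among the 6 pairs of creatine kinases lay between these genes and is shown because its letters do not tell the genes apart.
Ckmt1 and Ckmt2, coding position 892 in both: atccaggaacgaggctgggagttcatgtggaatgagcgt
Ckm and Ckb, coding position 88 in both: atggccaaggtgctgacccc
The first run has 39 bases and the other 20, and overall identity was 71.4% for Ckmt1 with Ckmt2 and between 59.5% and 60.7% for the 4 pairs of a cytosolic with a mitochondrial gene.

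The start windows of the mitochondrial forms are shown in the same way, for Ckmt1 at the start of Ckmt1-202, the more upstream of its 2 RefSeq windows.
Ckmt2, chr13:91876836-91877135, minus strand: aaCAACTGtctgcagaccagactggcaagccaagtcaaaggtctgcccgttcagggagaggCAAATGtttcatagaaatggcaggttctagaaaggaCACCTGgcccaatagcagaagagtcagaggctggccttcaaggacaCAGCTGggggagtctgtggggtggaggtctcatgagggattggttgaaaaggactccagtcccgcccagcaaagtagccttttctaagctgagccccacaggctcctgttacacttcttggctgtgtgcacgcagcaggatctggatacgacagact
Ckmt1, chr2:121357526-121357825, plus strand: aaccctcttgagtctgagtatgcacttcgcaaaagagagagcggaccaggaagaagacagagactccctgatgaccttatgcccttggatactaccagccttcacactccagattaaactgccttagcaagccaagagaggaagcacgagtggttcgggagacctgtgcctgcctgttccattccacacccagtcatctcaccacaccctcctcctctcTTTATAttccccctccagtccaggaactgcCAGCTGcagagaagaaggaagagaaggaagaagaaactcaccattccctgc
Ckmt2 held 4 CANNTG matches, of which the one at -107 was CAGCTG, 2 CCAAT matches and 1 GGGCGG, and no TATANA. The Ckmt1 window shown held TATANA at -31 and 1 CAGCTG at -1. The other Ckmt1 window, at the start of Ckmt1-201, held no TATANA and no CANNTG, and 1 CCAAT at -242. The few Ckmt1 reads were placed on different transcripts by the quantifications, so neither window is tied to a measured level. GGGCGG was found in 35.7% of all windows.

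Taken within each library, Ckm made up 97.4% and 97.6% of the summed TPM of the 4 creatine kinases in replicates 1 and 2. The cytosolic forms together exceeded the mitochondrial forms 38.5-fold in replicate 1 and 42.4-fold in replicate 2 (mean 40.4 ± 2.74, SD, n = 2). In the second quantification the same ratio was 51.8 ± 3.42 (SD, n = 2), and the Ckm over Ckb ratio was 2352 ± 236 (SD, n = 2). The gap between the quantifications came with a difference in how Ckm reads were divided among its transcripts.

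Ckm has 3 annotated transcripts, and the one that encodes the whole enzyme held the smallest share. Ckm-201 (1235 bases) held 59.2% of the gene's TPM in replicate 1 and 59.4% in replicate 2, and Ckm-202, a processed transcript of 671 bases with no annotated coding sequence, held 37.5% and 37.2%. Ckm-203 (2742 bases), the only one annotated with the full 1143 coding bases, held 3.31% and 3.41%. In the second quantification Ckm-201 had 51.8% and 51.9%, Ckm-202 had 47.9% and 47.8%, and Ckm-203 had 0.303% and 0.329%. Both libraries gave nearly the same division within a quantification, and the quantifications differed from each other. Ckm-201 lacks a 212-base exon at chr7:19414119-19414330 in which the coding sequence of Ckm-203 begins, at position 19414138, and its annotated coding sequence is 936 bases. Ckm-202 has that exon and ends soon after it, at position 19415533, so reads from the exon can be placed on this short model. In expected counts Ckm-202 held 109551 and 110949, beside 343047 and 352518 for Ckm-201 and 44648 and 47005 for Ckm-203. Ckm-203 also has the exon, but its last exon of 1634 bases runs 1258 bases past the end of the RefSeq gene at 19421583. No annotated transcript therefore joins the start-codon exon to the shorter end.

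The coding part of that exon is shown beside the same coding positions of Ckb, since it is the piece of Ckm that the leading transcript model leaves out. Capitals mark the 54 of 193 positions at which the genes differ, which leaves 72.0% identical.
Ckm, chr7:19414138-19414330, plus strand: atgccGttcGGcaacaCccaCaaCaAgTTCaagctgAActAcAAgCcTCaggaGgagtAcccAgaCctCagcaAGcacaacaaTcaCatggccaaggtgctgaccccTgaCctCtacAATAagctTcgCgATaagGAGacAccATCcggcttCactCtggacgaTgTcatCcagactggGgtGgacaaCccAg
Ckb, chr12:111671766-111671958, minus strand: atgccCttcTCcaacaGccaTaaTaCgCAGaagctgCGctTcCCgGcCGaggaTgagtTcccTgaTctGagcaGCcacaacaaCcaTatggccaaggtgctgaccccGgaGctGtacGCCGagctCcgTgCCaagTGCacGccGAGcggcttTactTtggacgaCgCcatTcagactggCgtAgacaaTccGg
When all Ckm reads were placed on a single coding model of 1415 bases, made of the Ckm-203 exons within the RefSeq span, the level was 11846 TPM (replicate 1) and 13003 TPM (replicate 2). The listed level was 1.35 and 1.34 times this value. In the second quantification the listed 25404 and 28074 TPM stood against 15049 and 16693 TPM on this model, a ratio of 1.69 and 1.68. The Ckm over Ckb ratio was 1373 on this model in the gene table. Ckm remained the most abundant of the 10 genes in both quantifications. Ak1, the next, had 865 and 921 TPM in the gene table and 1692 and 1795 TPM in the second quantification. In the gene table the Ckm level on this model lay below that of Myl1, a light chain of fast myosin (14102 and 14880 TPM), while its listed level lay above. Against the myosin heavy chain Myh4 (12004 and 12213 TPM) the level on this model was lower in replicate 1 and higher in replicate 2. The rank of 3 among protein-coding genes and the share of their TPM given for Ckm rest on the listed level. This alternative was chosen after the transcript shares were seen. On the opposite strand A930016O22Rik overlaps 451 exonic bases of Ckm and was listed at 1.01 and 0.99 TPM.

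**Figure D2:**
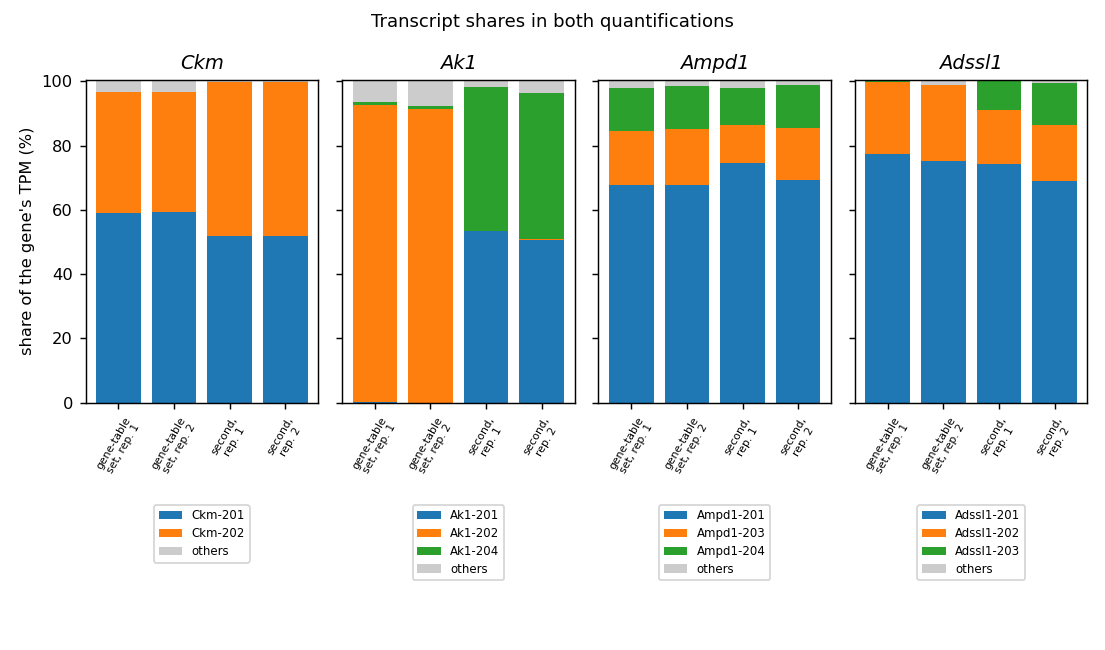
Share of each gene's TPM (%) taken by its annotated transcripts for Ckm, Ak1, Ampd1 and Adssl1, with the transcript table that matches the gene table on the left and the second quantification on the right of each panel, a bar per library. Ckm, Ampd1 and Adssl1 keep the same leading transcript in both, while the share of Ak1-202 is 92.4% and 91.5% in the first and 0.000583% and 0.238% in the second.

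Both enzymes of creatine synthesis were present, the second step well above the first. Gatm (ENSMUSG00000027199.14, chr2:122594467-122611303, minus strand), which joins arginine and glycine to guanidinoacetate in mitochondria, reached 15.9 TPM in replicate 1 and 18.05 TPM in replicate 2. Gamt (ENSMUSG00000020150.13, chr10:80258151-80261012, minus strand), which methylates guanidinoacetate to creatine, had 105 and 102 TPM. Gamt exceeded Gatm 6.58-fold in replicate 1 and 5.63-fold in replicate 2, a ratio computed after the values were seen. Slc6a8, the creatine transporter of the plasma membrane, had 26.4 and 28.8 TPM, above Gatm in each library. A single transcript led each gene, with Gatm-201 at 98.6 ± 1.17% and Gamt-202 at 96.3 ± 0.499% of TPM (SD, n = 2).

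The genes that surround these enzymes were also present at graded levels. Among 11 genes of methyl donor supply and arginine synthesis, 7 had at least 1 TPM in both libraries, and the most abundant were Mat2a, the catalytic subunit of the S-adenosylmethionine synthetase outside the liver, with 125 and 94.5 TPM, Mat2b, its regulatory subunit, with 24.3 and 22.5 TPM, and Mtrr, a reductase that reactivates methionine synthase, with 9.38 and 9.21 TPM. The liver synthetase Mat1a was listed at 0.01 and 0.03 TPM. Of 7 genes for creatine transport and mitochondrial exchange, the most abundant were Slc25a4, the muscle ADP/ATP carrier, with 1376 and 1384 TPM, the outer membrane channel Vdac1 with 572 and 579 TPM, and Vdac3 with 159 and 165 TPM. Ckmt2, which works next to the carrier, stood at 0.301 and 0.297 times the TPM of Slc25a4. Of the M-line genes for myomesin, M-protein and their relative, the first of which encode binding partners of muscle creatine kinase, Myom1 had 529 and 482 TPM, Myom2 492 and 495 TPM, and Myom3 16.5 and 24.6 TPM.

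Ak1 was far above each of the other adenylate kinases described here. Ak1 (ENSMUSG00000026817.14, chr2:32621758-32635058, plus strand), the cytosolic form of muscle, reached 865 TPM in replicate 1 and 921 TPM in replicate 2, from 51165 and 50497 counts. Among these, Ak6, a nuclear form, had 26.9 and 25.9 TPM, and Ak3, the mitochondrial matrix form that uses GTP, had 24.6 and 25.3 TPM. Ak4 had 1.53 and 0.97 TPM and Ak5 0.44 and 0.44 TPM. In the gene table Ak8, Ak7 and Ak9 rested on at most 3 counts in a library, and Ak9 was listed at 0 in both. The second quantification gave Ak9 10.3 and 8.19 counts. Ak1 stood 16.1-fold above the sum of Ak3 to Ak9 in replicate 1 and 17.5-fold in replicate 2 (mean 16.8 ± 0.932, SD, n = 2).

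**Figure D3:**
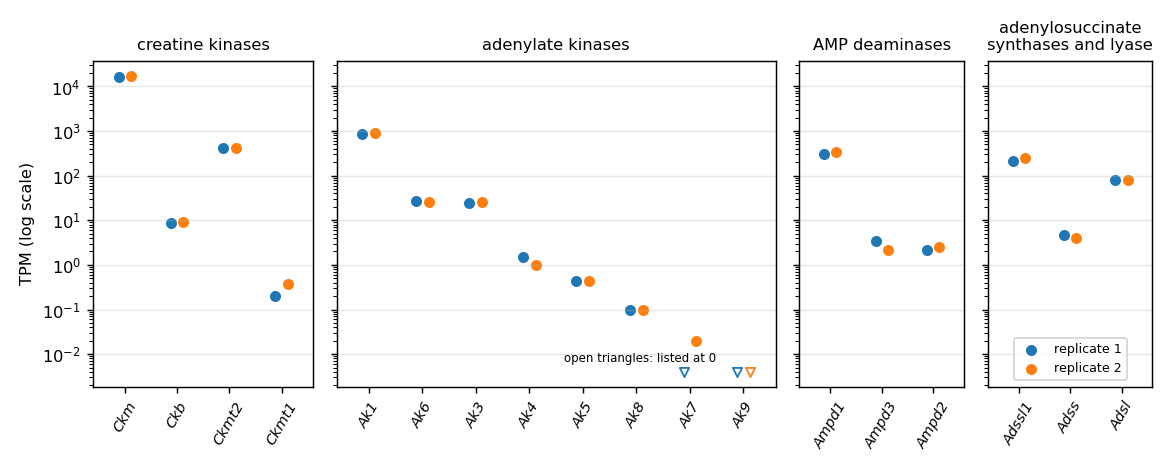
TPM on a log axis of the creatine kinases, adenylate kinases, AMP deaminases and adenylosuccinate enzymes described here, blue for replicate 1 and orange for replicate 2, with open triangles for genes listed at 0. In each family the muscle form (Ckm, Ak1, Ampd1, Adssl1) is the highest in both libraries.

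The level of Ak1 depended on the quantification more than that of any other of the 10 genes. The second quantification gave 1692 and 1795 TPM, against 865 and 921 TPM in the gene table. After the general shift between the quantifications was removed (a median of 1.28-fold over the 12156 genes averaging 1 TPM or more), Ak1 was higher by 0.60 on the log2 scale and Ckm by 0.32. Ak1 was the only one of the 9 genes averaging 1 TPM or more that lay over 1.5-fold from the median shift, against 9.86% of all such genes. The read counts were close, at 54378 and 53697 in the second quantification and 51165 and 50497 in the gene table. The transcripts they were given to were not. In the second quantification Ak1-201 (2034 bases) held 53.5% and 50.6% of the gene's TPM and Ak1-204, a retained-intron transcript of 752 bases, held 44.9% and 45.6%. In the gene table's matching transcript table Ak1-202 (2063 bases) held 92.4% and 91.5%, and Ak1-201 held 0.0890% and 0%. Ak1-202 has 1 base and Ak1-201 has 17 bases that lie in no other annotated transcript of the gene. Since TPM divides by length, the 8988 and 9114 estimated reads given to the short Ak1-204 made up nearly as much TPM as the 43984 and 41399 given to Ak1-201.

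The 2 transcripts start at different places, so the quantifications point to different start windows, which are shown with the same marks.
Ak1-202 start, chr2:32625187-32625486, plus strand: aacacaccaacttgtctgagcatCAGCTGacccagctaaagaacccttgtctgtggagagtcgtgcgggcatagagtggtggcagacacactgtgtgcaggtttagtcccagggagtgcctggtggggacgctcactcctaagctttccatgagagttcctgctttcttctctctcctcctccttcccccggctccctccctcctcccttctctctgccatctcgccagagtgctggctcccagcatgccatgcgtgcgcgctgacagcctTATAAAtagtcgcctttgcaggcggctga
Ak1-201 start, chr2:32629250-32629549, plus strand: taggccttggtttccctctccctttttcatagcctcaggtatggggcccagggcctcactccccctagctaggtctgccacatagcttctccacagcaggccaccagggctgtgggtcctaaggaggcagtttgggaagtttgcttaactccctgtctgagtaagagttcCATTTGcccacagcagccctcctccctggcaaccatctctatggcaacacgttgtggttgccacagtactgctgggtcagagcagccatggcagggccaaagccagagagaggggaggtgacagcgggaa
The window of Ak1-202 held 1 CAGCTG at -227 and a TATANA match that began at 21, after the annotated start, and overlapped a match to the MEF2 pattern. The window of Ak1-201 held 1 CANNTG, at -80, which was not CAGCTG, and no TATANA. The deposited tables give no read positions, so which start was used in these muscles was not tested.

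In the purine nucleotide cycle the muscle forms of both dedicated enzymes predominated over their paralogues. Ampd1 (ENSMUSG00000070385.12, chr3:103074014-103099720, plus strand), the muscle AMP deaminase, reached 309 TPM in replicate 1 and 343 TPM in replicate 2. Ampd3 (ENSMUSG00000005686.17, chr7:110768206-110812405, plus strand), the form known from red blood cells, had 3.48 and 2.19 TPM, and Ampd2, the form known from liver, had 2.16 and 2.52 TPM. Both minor forms were under 4 TPM, and their order differed between the libraries. Ampd1 was 88.9-fold above Ampd3 in replicate 1 and 156-fold in replicate 2 (mean 123 ± 47.8, SD, n = 2), and 143-fold and 136-fold above Ampd2. The longest complete coding sequences of Ampd1 and Ampd3 were identical at 63.6% of alignment columns, with a longest shared run of 17 bases.

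Adssl1 (ENSMUSG00000011148.14, chr12:112620045-112641360, plus strand), the muscle adenylosuccinate synthase, reached 213 TPM in replicate 1 and 243 TPM in replicate 2. Its widely expressed paralogue Adss had 4.68 and 4.01 TPM. Adsl, the lyase that completes the cycle and has no muscle form, had 80.8 and 79.7 TPM. Adssl1 was 45.4-fold above Adss in replicate 1 and 60.6-fold in replicate 2 (mean 53.0 ± 10.7, SD, n = 2), and 2.63-fold and 3.05-fold above Adsl. Ampd1 over Adssl1, the deaminating over the reaminating step, had a ratio of 1.45 and 1.41 in the gene table, and 1.205 and 1.204 in the second quantification.

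For Ampd1, Adssl1 and Ampd3 the leading transcript was the same in both quantifications. Ampd1-201, the full-length model, held 67.8% of TPM in each library, while the fragments Ampd1-203 (579 bases, annotated without its end) and Ampd1-204 (751 bases, annotated without its start) held 17.1 ± 0.320% and 13.4 ± 0.197% (SD, n = 2). Adssl1-201 held 77.5% and 75.1% and Adssl1-202, which starts further downstream, held 22.2% and 23.7%. Adssl1-203, a processed transcript of 562 bases with no annotated coding sequence, held 0.287% and 0.169%. In the second quantification Adssl1-203 held 8.77% and 13.2%, or 26.9 and 48.1 TPM. In Ampd3 the share of Ampd3-201 was 63.2% in replicate 1 and 72.0% in replicate 2, and the fragment Ampd3-205 held 27.9% and 0%, on 17.7 and 0 counts. On the opposite strand Rnf141 overlaps 195 exonic bases of Ampd3 and had 5.71 and 6.27 TPM, above Ampd3 itself, and whether the counting used strand is not given in the sources used here.

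Purine and nucleotide enzymes outside the cycle were less abundant than Ampd1 and Adssl1 in the gene table, except Nme2, which lay between them there. Of 18 genes of purine breakdown and salvage, 15 had at least 1 TPM in both libraries, with a median of 5.68 TPM. The most abundant in the gene table were Adk (adenosine kinase, 45.7 and 53.2 TPM), Nt5c3 (a cytosolic nucleotidase, 26.5 and 27.5 TPM) and Aprt (adenine salvage, 18.1 and 19.4 TPM). In the second quantification Adk, with 38.2 and 38.7 TPM, was below Nt5c3, with 40.5 and 39.6 TPM. All 10 genes of de novo purine synthesis passed 1 TPM, led by Paics with 68.5 and 65.8 TPM, Impdh2 with 22.8 and 22.2 TPM and Gart with 20.4 and 24.6 TPM. Among 8 other nucleoside phosphate kinases Nme2, a nucleoside diphosphate kinase, was the most abundant with 262 and 281 TPM, followed by Nme6 with 8.51 and 8.84 TPM and Guk1 with 7.74 and 8.73 TPM. In the gene table no gene of these 3 lists reached the level of Ampd1 in either library. In the second quantification Nme2 was above Ampd1 in both, with 408 and 452 TPM beside 370 and 438 TPM for Ampd1.

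Between the libraries the 10 genes differed little, and most of the differences exceeded counting error. Rounded counts were compared by an exact binomial test, two-sided, with TMM-scaled library sizes (a scaling that assumes most genes do not differ) and Benjamini-Hochberg adjustment over the whole table. By this test 7 of the 10 genes were apart at 0.05, against 21.5% of 17245 genes. Of these, 6 were higher in replicate 2 (Ckm, Ckmt2, Gatm, Ak1, Ampd1 and Adssl1), against 10.9% of all genes, and 1 was higher in replicate 1 (Ampd3), against 10.6%. Depth raises the share called: among genes with 10000 or more counts in the libraries together, 73.1% of 683 were apart, and all 5 of the 10 genes at that depth were among them. None of the 10 genes was called with more than a 1.5-fold difference in TMM-scaled counts, against 5.02% of all genes tested. None of the 9 averaging 1 TPM or more was over 2-fold apart in TPM + 1, against 1.1% of 12156 genes. The median log2 difference of those 9 genes, replicate 1 over replicate 2, was -0.13 on TMM-scaled counts, against 0.0098 over all genes tested and -0.050 over the genes with 10000 or more counts.

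The sizes were small for the abundant genes. On TMM-scaled counts the log2 difference, replicate 1 over replicate 2, was -0.19 for Ckm, -0.13 for Ak1, -0.20 for Ampd1 (exact binomial test, adjusted p = 6.8e-36), -0.24 for Adssl1 (adjusted p = 5.9e-35) and -0.25 for Gatm (adjusted p = 0.000202). Ampd3 differed most among the called genes, with 307 counts in replicate 1 and 212 in replicate 2, a log2 difference of 0.38 (adjusted p = 0.0187). In TPM Ampd3 lay further apart, at 3.48 and 2.19 in the gene table and 4.21 and 2.37 in the second quantification. Of its gene-table TPM the fragment Ampd3-205 held 0.97 and 0, on 17.7 and 0 counts. Ckmt2 was called at -0.046 (adjusted p = 0.0166), but its TPM was slightly higher in replicate 1, at 414 against 411. Ckb (adjusted p = 0.606), Gamt (adjusted p = 1) and Ckmt1 (adjusted p = 0.312) did not pass the test. These p-values compare 2 libraries with counting error alone and not conditions. The biological coefficient of variation that edgeR estimated over 14965 genes was 0.119.

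**Figure D4:**
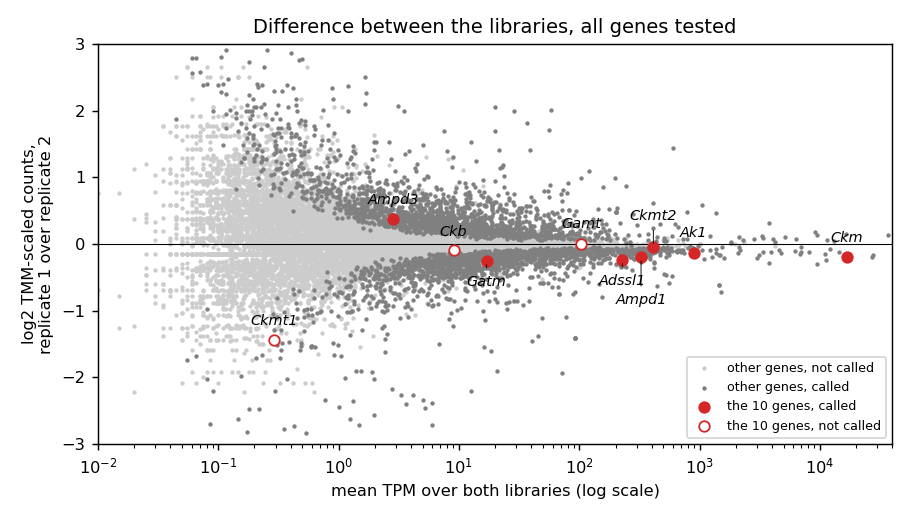
Log2 of TMM-scaled counts, replicate 1 over replicate 2, against mean TPM on a log axis, for all genes tested (grey, darker where called) and the 10 genes (red, filled where called). Of 17245 genes tested, 17185 lie within the axes. The called members of the set lie between -0.25 and 0.38, and Ckmt1 at -1.43 rests on 3 and 8 counts.

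The direction of these differences depended on the scaling. When counts were scaled by the totals of the added ERCC RNAs instead, the median of all genes moved to 0.30 on the log2 scale, and Ckm, Ak1, Ampd1, Adssl1, Gatm and Ckmt2 were then higher in replicate 1 by 0.10, 0.16, 0.095, 0.056, 0.040 and 0.25. Relative to that median they remained lower in replicate 1. Ampd3 was higher in replicate 1 under each of the 4 scalings shown. With the ERCC totals 7 of the 10 genes were again called, all higher in replicate 1 and with Gamt in place of Gatm, against 52.5% of all genes tested.

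**Figure D5:**
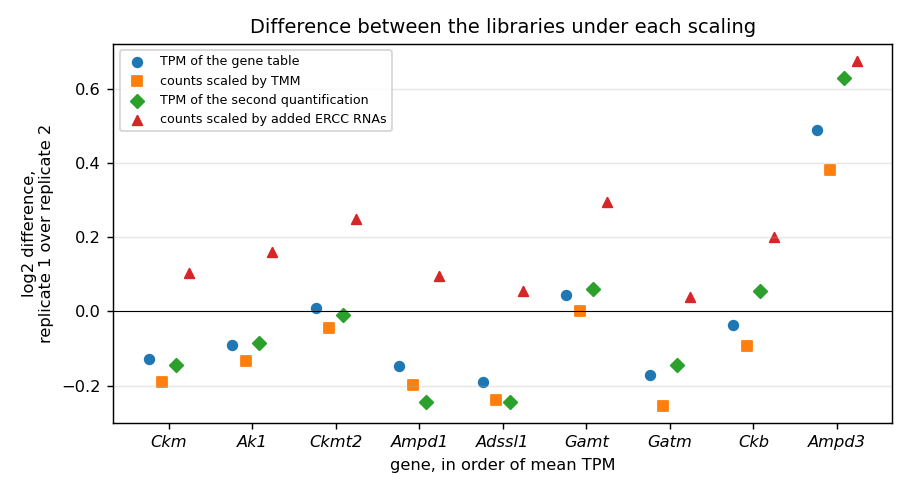
Log2 difference, replicate 1 over replicate 2, of the 9 genes averaging 1 TPM or more, under 4 scalings shown by marker shape. The ERCC-scaled values (triangles) lie above zero for all 9 genes, while TMM-scaled values (squares) lie below zero for 7 of them, and Ampd3 is above zero in every scaling.

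The same test was read for the genes around the 10, list by list, beside the 10.6% of all genes tested that were higher in replicate 1 and the 10.9% higher in replicate 2. Of the 6 tested genes of creatine transport and mitochondrial exchange, 4 were higher in replicate 2 (Slc6a8, Slc25a4, Vdac1 and Vdac3) and none in replicate 1. All but Slc6a8 of these had over 10000 counts in the libraries together, a depth at which 73.1% of genes were apart. In the second quantification Slc6a8 also had more counts in replicate 2 (2665 and 2802). Its TPM in that quantification was not higher in replicate 2, at 37.8 and 37.2 TPM. Of the 5 genes tested among Ak3 to Ak9 and Cmpk1, Ak4 was higher in replicate 1 and none in replicate 2. None of the 3 partners Ampd2, Adss and Adsl was apart. Of 17 tested genes of purine breakdown and salvage 2 were higher in replicate 1 (Pnp and Xdh) and none in replicate 2. The TPM of Xdh went the other way, with 8.93 and 9.42 TPM in the gene table and 11.8 and 18.1 TPM in the second quantification. In de novo purine synthesis 1 of 10 genes was higher in replicate 1 and 3 in replicate 2. Of the 9 tested methyl donor genes 2 were higher in replicate 1 and 1 in replicate 2. Both calls among the 8 nucleoside phosphate kinases (Nme1 and Nme2) were higher in replicate 2, although the gene table lists Nme1 at 8.21 and 7.85 TPM, the higher value being that of replicate 1. Of the M-line genes Myom1 was higher in replicate 1, and Myom2 and Myom3 in replicate 2.

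Markers of several cell types also differed between the libraries on TMM-scaled counts. Their called counts stand beside the 10.6% of all genes tested that were higher in replicate 1 and the 10.9% higher in replicate 2. All 8 genes of the fast-fibre list, Acta1 included, were called higher in replicate 2, the direction of the 6 genes above. Each had over 10000 counts in the libraries together, a depth at which 73.1% of genes were apart in either direction. Of the slow-fibre markers 3 of 8 were higher in replicate 1 and 1 in replicate 2. Erythroid markers summed to 1393 TPM in replicate 1 and 1958 TPM in replicate 2 (5 of 6 higher in replicate 2), and Schwann cell markers to 124 and 171 TPM (4 of 6 higher in replicate 2). Endothelial and fibroblast markers mostly went the other way. Endothelial markers summed to 166 and 142 TPM (4 of 6 higher in replicate 1) and fibroblast markers to 2580 and 2091 TPM (4 of 6 higher in replicate 1 and 1 in replicate 2). Adipocyte markers differed most. Adipoq, Plin1, Cfd, Lep and Cidec were 5.09- to 11.3-fold higher in replicate 2 on TMM-scaled counts, all at low levels (0.07 to 1.62 TPM for replicate 1, and for replicate 2 between 1.40 and 10.3 TPM). Fabp4, with 171 and 130 TPM, was higher in replicate 1 and carried the adipocyte sum of 173 and 147 TPM. Embryonic and neonatal muscle markers summed to 3697 and 4265 TPM, of which Actc1 (cardiac actin) made up 3482 and 4077 TPM, while 4 of the 6 had the higher TPM in replicate 1. Pericyte and smooth muscle markers summed to 1032 and 1046 TPM, of which Des (desmin, also a protein of muscle fibres) made up 701 and 723 TPM, and again 4 of 6 had the higher TPM in replicate 1. Satellite cell and myogenic markers summed to 66.0 and 71.8 TPM, and macrophage markers to 38.6 and 33.7 TPM. No marker was listed at 0 in either library. Ampd3, the form known from red blood cells, was higher in replicate 1, the library with the lower erythroid sum. The part of cell composition in the differences of the 10 genes was not tested.

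The protein-coding genes closest to Ckm in log2(TPM + 1), by the sum of absolute differences over 2 libraries, were Myl1, which encodes a light chain of fast myosin, with 14102 and 14880 TPM and a distance of 0.40, Myh4, the myosin heavy chain of fast IIb fibres, with 12004 and 12213 TPM and a distance of 0.92, and mt-Co1, a subunit of cytochrome oxidase, with 11820 and 10885 TPM and a distance of 1.11. With 2 libraries this measure reflects level and little else.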

How the data were processed

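Total RNA of gastrocnemius was measured in 2 libraries of 1 group. The authors made the gene table, and a matching transcript table, from transcriptome alignments, and a second quantification of transcripts from the reads with an index, per the deposited description (tool names not given in the sources used here). Per the file headers, the deposited tables hold expected counts (estimated reads, not whole numbers), TPM scaled by the authors over all entries, added RNAs included, the bounds of the quantifier's interval (a signal in TPM), and transcript shares in percent. Transcript shares were recomputed here from TPM. The build was mm10 with GENCODE M21, per the labels and the deposited description. The reference is not specific to CAST alleles.

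The 10 genes and all lists were chosen with earlier results of these data known. Symbols came from the second transcript table and were joined to the gene table by gene identifier. Named besides these 10 are the 3 genes with the highest mean TPM of each pathway list, Slc6a8, Ampd2, Adss, Adsl, Ak3 to Ak9, the 3 protein-coding genes nearest to Ckm, and transcripts whose mean share reached 10%; Ckm-203, Mat1a and called list genes were named after their values were seen. A gene that these choices cover is not reported here. Lists cover creatine transport and mitochondrial exchange, other adenylate kinases, other nucleoside phosphate kinases, purine nucleotide cycle partners, purine breakdown and salvage, de novo purine synthesis, methyl donor supply, M-line partners, and markers of 12 cell types.

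Expected counts were rounded. Counts were compared by a two-sided exact binomial test given library sizes scaled by TMM (edgeR 4.0.16, R 4.3.3), for genes with 10 or more counts in all, with Benjamini-Hochberg adjustment at 0.05. The script was tested on simulated data. The adjusted p of Ckm was below what the computation can hold and is not printed. DESeq2 1.42.0 size factors, ERCC totals, no count minimum, the second quantification, other pseudocounts, posterior mean TPM and TPM rescaled over nuclear protein-coding genes were alternatives. Log2 ratios of TPM used log2(TPM + 1). Ratios are means of per-library ratios with SD. Coding sequences were aligned with Biopython 1.88. Floors (3 counts) and intervals cover counting error only.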

Additional observations from a re-analysis of the deposited data

How the results depend on the processing

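No paired analysis was possible because the study has 1 group. Of 34 alternatives tried on the ratios and on the counts of genes apart, other than leaving out a library, 21 moved the value by less than the spread between the libraries, or the count by less than 1.5 times. With 2 libraries, leaving out 1 always moves a mean by less than the SD, so those values show only the range. The 21 include the count of 7 of the 10 genes called with ERCC totals, although their direction changed and Gamt took the place of Gatm. In the second quantification, the Ckm over Ckb ratio was 2352, against 1843 in the gene table, Ak1 over the sum of Ak3 to Ak9 27.0, against 16.8, the Ckm share of creatine kinases 98.1%, against 97.5%, and the cytosolic over mitochondrial ratio 51.8, against 40.4. With Ckm on 1 coding model these were 1373 (Ckm over Ckb), 96.7% and 30.1. A pseudocount of 1 TPM on both sides gave 1660 for Ckm over Ckb and 322 for Ckmt2 over Ckmt1, and posterior mean TPM gave 571 for the second of these, against 1575, since Ckmt1 rests on few counts. Leaving out a library gave 1786 to 1900 for Ckm over Ckb, 1081 to 2069 for Ckmt2 over Ckmt1, 88.9 to 156 for Ampd1 over Ampd3, 45.4 to 60.6 for Adssl1 over Adss, 16.1 to 17.5 for Ak1, 97.4% to 97.6% for the Ckm share and 38.5 to 42.4 for the cytosolic over mitochondrial ratio. ERCC totals called 9052 genes, against 3704, of which 96.7% were higher in replicate 1, against 49.4%. Requiring also a 1.5-fold difference in TMM-scaled counts left 865 genes and 0 of the 10 genes called. The log2 difference, replicate 1 over replicate 2, changed sign with ERCC totals for Ckm (0.10), Gatm (0.040), Ak1 (0.16), Ampd1 (0.095) and Adssl1 (0.056). That of Ckb, called with neither TMM nor ERCC scaling, also changed sign (0.20). For Ckmt2 the log2 difference was -0.046 on TMM-scaled counts and -0.0099 in the second quantification, against 0.010 in TPM of the gene table. The leading transcript was the same in both quantifications for 8 of the 9 genes averaging 1 TPM or more, with Ak1 the exception, and Ckmt1 had too few counts to name one. TPM rescaled over nuclear protein-coding genes raised the level of each of the 10 genes 2.13- to 2.14-fold (Ckm to 35563 TPM, Ak1 to 1904 TPM) and left their order. Depth limits Ckmt1, Ak7, Ak8 and Ak9, at or near the floor of 3 counts in the gene table.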
